A study of Mus musculus with 18 samples.

Results

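AY036118 and Gm42418 are a pair of overlapping loci on mouse chromosome 17. All of AY036118 and 67.9% of Gm42418 lie within a transcript annotated as ribosomal RNA. They were taken by symbol from the deposited table and are 2 of its 13218 loci, which are nearly all annotated as long noncoding. The table gives FPKM (fragments counted at a locus, scaled to its length and to the size of the library) in testicular germ cells of ICR mice, an outbred strain. Cells were sorted by size with STA-PUT, a sedimentation method, into 6 types of 3 libraries each, and the labels name no treatment or mutation. By the age of the mice after birth, the types are priSG-A at day 6, priSG-B at day 9, plpSC at day 14, pacSC at day 21, rST at day 35 and elST at day 56. SG, SC and ST are common short forms of spermatogonia (the dividing stem and progenitor cells), spermatocytes (cells in meiosis) and spermatids (haploid cells after meiosis). The series text speaks of sequencing in duplicate where the labels number 3 libraries per type, and every n = 3 below follows the labels. No label says whether the libraries of a type came from separate animals, so the p-values below rest on a spread that may be technical and say nothing about variation between mice.

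Ribosomal RNA makes up most of the RNA of a cell. It is transcribed as 1 long precursor from tandem repeats, in which spacers that are later cut away flank the mature small-subunit and large-subunit RNAs. Most library protocols remove it, either by capturing poly(A) tails, which mature ribosomal RNA lacks, or by depletion, and the reads that remain are counted at whichever annotated locus carries a copy of the sequence. The labels name total RNA and the Illumina TruSeq RNA kit, and the way in which ribosomal RNA was removed from each library is not given in the sources used here.

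In the GENCODE M21 annotation of mm10, Gm42418 (ENSMUSG00000098178.1, typed lincRNA) is a single exon of 1831 bases on the plus strand, chr17:39846958-39848788. AY036118 (ENSMUSG00000105361.1, also typed lincRNA) is a single exon of 923 bases on the minus strand, chr17:39847113-39848035. All of AY036118 lies inside Gm42418, over its bases 156 to 1078, and the sequences there are exact reverse complements. The first 1244 bases of Gm42418 (67.9%), AY036118 included, lie within a transcript of CT010467.1, 1849 bases long, that GENCODE types as rRNA (chr17:39846353-39848201, minus strand). There Gm42418 is the reverse complement of that transcript, while AY036118 has its strand and sequence. Which strand matches the ribosomal RNA of the cell was not tested. RefSeq places Rn18s-rs5, a pseudogene named after the small-subunit RNA, over the same stretch and lists Gm42418 among its synonyms. The remaining 587 bases of Gm42418 lie past the end of that transcript, with a GC content of 71.0% there and 55.1% in the stretch inside it. CT010467.1 is not among the rows analysed here.

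3 stretches show how the loci share sequence. The first gives the start of Gm42418, chr17:39846958-39847257 on the plus strand, with the 145 bases that AY036118 also covers in capitals. The second gives the last 145 bases of AY036118, chr17:39847113-39847257 on the minus strand, which are the reverse complement of those capitals. The third gives the place where Gm42418 leaves the rRNA transcript, chr17:39848102-39848301 on the plus strand, with the 100 bases inside that transcript in capitals. They are read from the GENCODE M21 transcript sequences, 5′ to 3′.
Gm42418, bases 1 to 300: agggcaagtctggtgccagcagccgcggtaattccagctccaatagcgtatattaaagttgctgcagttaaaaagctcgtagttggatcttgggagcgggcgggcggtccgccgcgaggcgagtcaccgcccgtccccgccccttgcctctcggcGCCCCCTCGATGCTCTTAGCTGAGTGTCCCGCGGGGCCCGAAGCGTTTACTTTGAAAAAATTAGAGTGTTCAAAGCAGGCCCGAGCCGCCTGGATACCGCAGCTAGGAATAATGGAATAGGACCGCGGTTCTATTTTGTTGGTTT
AY036118, bases 779 to 923: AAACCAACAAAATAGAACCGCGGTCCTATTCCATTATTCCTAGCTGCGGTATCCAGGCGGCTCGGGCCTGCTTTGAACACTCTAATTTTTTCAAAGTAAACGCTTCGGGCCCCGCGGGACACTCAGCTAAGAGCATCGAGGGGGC
Gm42418, bases 1145 to 1344: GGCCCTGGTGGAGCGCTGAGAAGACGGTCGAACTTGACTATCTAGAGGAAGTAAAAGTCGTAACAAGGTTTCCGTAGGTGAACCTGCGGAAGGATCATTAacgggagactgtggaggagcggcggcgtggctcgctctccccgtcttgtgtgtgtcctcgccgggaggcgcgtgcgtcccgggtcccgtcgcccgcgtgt

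**Figure D1:**
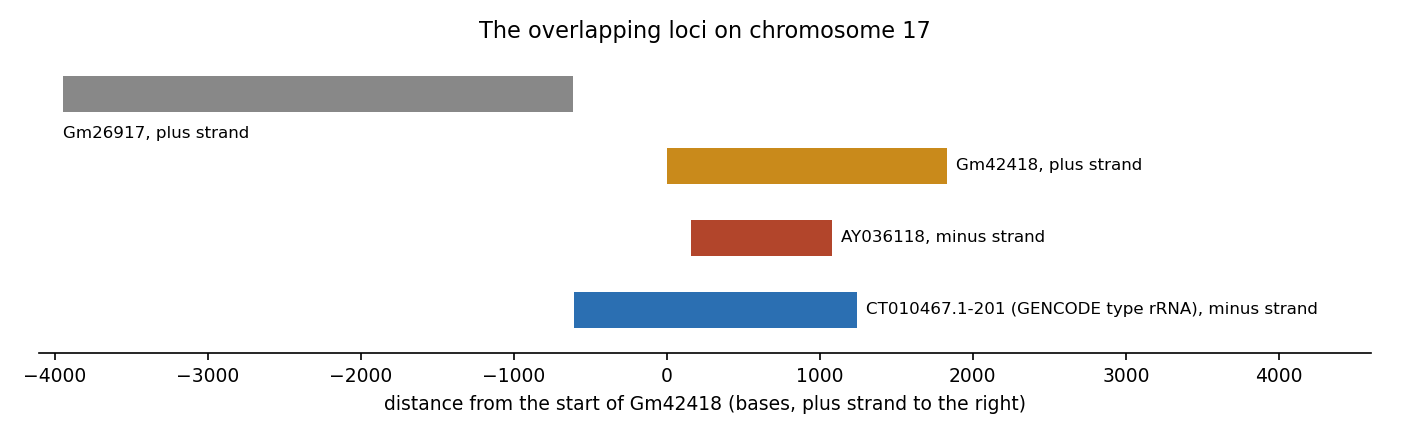
Map of the overlapping loci, with the distance from the start of Gm42418 in bases on the horizontal axis and 1 bar per locus or transcript. AY036118 (923 bases) lies wholly inside Gm42418 (1831 bases), and both reach into the transcript of 1849 bases that GENCODE types as rRNA, while Gm26917 ends 11 bases before that transcript.

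The kit that the labels give for every library is of a kind without strand marking, which was not tested in the files. Without it, a fragment from the shared 923 bases could belong to either locus, and its assignment rests on how the authors' software shared out reads. Among the 141767 GENCODE transcripts, a BLAST search found AY036118 whole and without a mismatch in Gm42418 and in the rRNA transcript, and otherwise only a stretch of 68 bases at 83.8% identity in a retained-intron transcript of Slc22a19. The last 686 bases of Gm42418 also match, at 98.4% identity, a second transcript of CT010467.1 that GENCODE types as a pseudogene. The RefSeq table places the symbol AY036118 on a much longer gene (chr17:39848112-39898385) that begins 76 bases past the locus measured here. The values below belong to the shorter GENCODE locus.

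The libraries differ from each other in ways the type labels do not explain. The table holds no read totals, so depth was inferred from the step between low FPKM values, which came to 31.6 to 91.8 M (mega) fragments per library, with an inferred mean fragment length of 198 to 268 bp. A line at 220 bp split the libraries into 12 with shorter fragments (198 to 214 bp) and 6 with longer ones (232 to 268 bp). This split is called the library set here. It is not independent of AY036118, which an earlier analysis of these data had used to describe the same sets. The step from 236 to 262 bp is wider than that from 214 to 232 bp, and a line there would place priSG-B with the shorter-fragment libraries. In a self-test the inferred length was off by up to 8 bp. The longer-fragment libraries are all 3 of priSG-B, pacSC replicates 1 and 2 and elST replicate 3. They were also deeper, at 65.1 to 91.8 M fragments, against 31.6 to 56.8 M in the shorter-fragment libraries. 13 of the 18 libraries had their closest library, over all loci tested, under another type label. The table holds 0 of the 37 coding marker genes listed for testis cell types, so the labels could not be checked against them. 1700027A15Rik, which overlaps exons of the spermatid gene Tnp1 on the other strand, was at 874 FPKM in plpSC replicate 3 and listed at 0 in rST replicate 1, against the order of the labels.

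AY036118 was among the 5 most abundant loci of a library or lower by more than an order of magnitude. Replicates 1, 2 and 3 of priSG-A gave 9338, 6575 and 12911 FPKM. The priSG-B replicates gave 36.2, 27.2 and 23.0 FPKM. Those of plpSC gave 7526, 2307 and 12221 FPKM. No priSG-B library thus came near the lowest of priSG-A or plpSC. In bulk RNA such as this, fewer cells of a type and less RNA per cell cannot be told apart. The first 2 pacSC replicates held 7.44 and 7.25 FPKM, while replicate 3 held 9242 FPKM. The 3 rST libraries stood at 11750, 13911 and 6509 FPKM. In elST replicates 1 and 2 held 9351 and 1998 FPKM and replicate 3 held 7.41 FPKM. Within pacSC and elST, the types with libraries of both sets, the highest replicate was 1274 and 1262 times the lowest.

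Gm42418 followed AY036118 over a narrower range. Its values were 493, 765 and 1027 FPKM for the priSG-A replicates, 256, 237 and 198.6 FPKM for those of priSG-B and 330.6, 342 and 884 FPKM for those of plpSC. Of the pacSC replicates, the first 2 held 33.5 and 28.4 FPKM and replicate 3 held 338 FPKM. The rST libraries held 1005, 1024 and 264 FPKM, and the elST libraries 870, 177 and 32.2 FPKM. The lowest values were again those of pacSC replicates 1 and 2 and elST replicate 3, but the priSG-B libraries lay within the range of the remaining types.

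**Figure D2:**
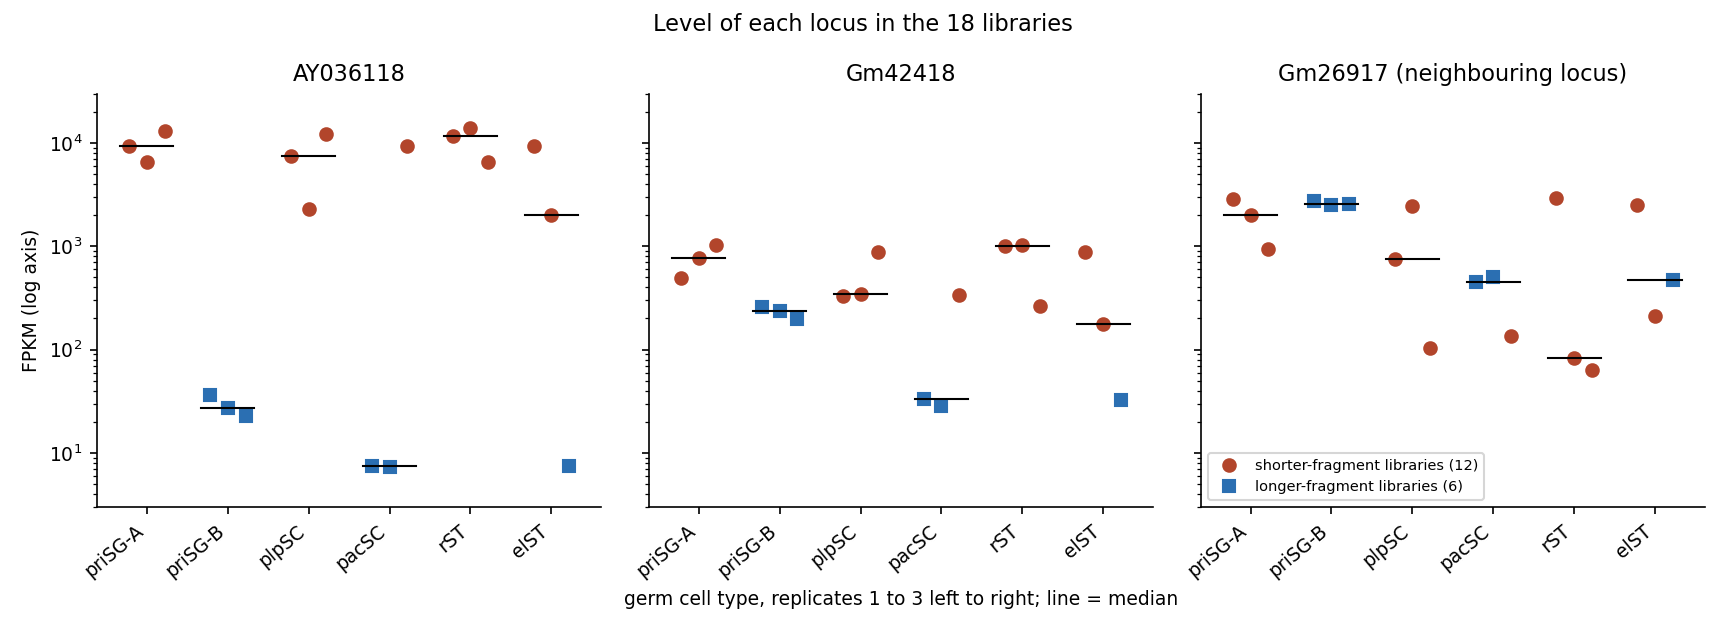
FPKM of AY036118, Gm42418 and the neighbouring Gm26917 on a log axis in each of the 18 libraries, by type from day 6 to day 56, with replicates 1 to 3 side by side and the median of a type as a line. Circles are the 12 shorter-fragment and squares the 6 longer-fragment libraries: AY036118 lies at 1998 FPKM or more in every circle and at 36.2 FPKM or less in every square, while Gm42418 and Gm26917 overlap between them.

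By the mean of log2(FPKM + 1), the order of the types for AY036118 was rST (13.32 ± 0.58, SD, n = 3 as for all types), priSG-A (13.18 ± 0.49), plpSC (12.54 ± 1.24), elST (9.08 ± 5.32), pacSC (6.43 ± 5.84) and priSG-B (4.87 ± 0.32). For Gm42418 it was priSG-A (9.51 ± 0.53), rST (9.34 ± 1.12), plpSC (8.86 ± 0.80), priSG-B (7.85 ± 0.19), elST (7.43 ± 2.36) and pacSC (6.13 ± 1.97). Between neighbours in these orders the libraries overlapped in each case but 1, Gm42418 in plpSC and priSG-B, where 330.6 FPKM was the lowest plpSC value and 256 FPKM the highest priSG-B value. The SD of more than 5 for AY036118 in elST and pacSC spans replicates of both library sets. In elST, replicates 1 and 2, which share a set, were also apart, at 13.19 and 10.97, with replicate 3 at 3.07.

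Set against the library sets, AY036118 separated without overlap. It ranged from 1998 to 13911 FPKM (median 9290) in the 12 shorter-fragment libraries and from 7.25 to 36.2 FPKM (median 15.2) in the 6 longer-fragment libraries. The lowest shorter-fragment value was 55.2 times the highest longer-fragment value. Of the 4117 loci tested, 7 (0.17%) were higher in every shorter-fragment library than in every longer-fragment library, and AY036118 had the widest gap of them, 5.75 on the log2(FPKM + 1) scale where the next widest was 0.54. A further 78 loci (1.89%) were lower in every shorter-fragment library. An earlier analysis of these data had used AY036118 to describe the same sets of libraries, so the separation is given as a description, with no test. For Gm42418, 11 of the 12 shorter-fragment libraries stood above the highest longer-fragment one, with a range of 177 to 1027 FPKM (median 629) against 28.4 to 256 FPKM (median 116).

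Within the longer-fragment libraries the levels formed a further pair of groups. The 3 priSG-B libraries, with inferred fragments of 232 to 236 bp, held 23.0 to 36.2 FPKM of AY036118 and 198.6 to 256 FPKM of Gm42418. The pacSC and elST libraries of the set, with fragments of 262 to 268 bp, held 7.25 to 7.44 FPKM of AY036118 and 28.4 to 33.5 FPKM of Gm42418. The lowest priSG-B value was 3.09 times the highest of the others for AY036118 and 5.92 times for Gm42418. Type and fragment length cannot be told apart here, since no priSG-B library has fragments of the longer kind and no pacSC or elST library those of priSG-B. In the shorter-fragment libraries the highest value was 6.96 times the lowest for AY036118 and 5.79 times for Gm42418.

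**Figure D3:**
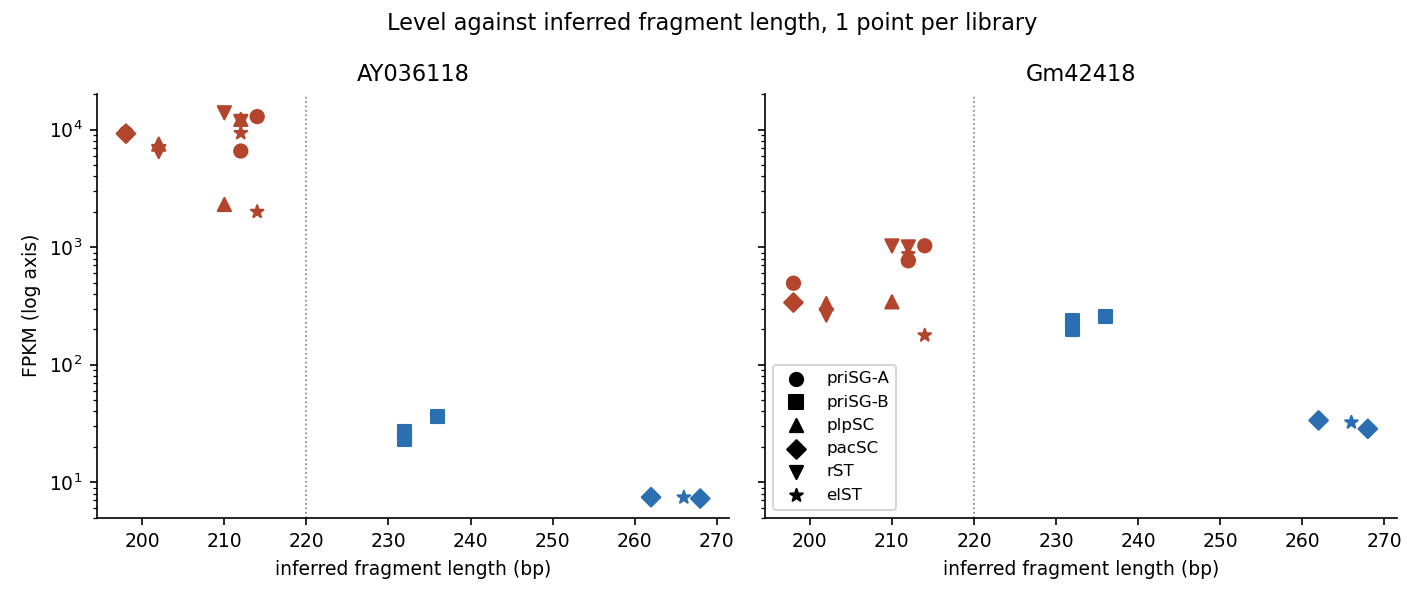
FPKM of AY036118 and Gm42418 on a log axis against the inferred mean fragment length in bp, 1 point per library, with the shape giving the type and the dotted line the division at 220 bp. Every library left of the line holds at least 1998 FPKM of AY036118, and right of it the priSG-B libraries (232 to 236 bp) lie above those of pacSC and elST (262 to 268 bp) for both loci.

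As a rank among the 13218 loci, AY036118 ranked between 1 and 5 in each shorter-fragment library, and 1 in priSG-A replicate 1 and rST replicate 3. In priSG-B it ranked 70, 84 and 97, and in pacSC replicates 1 and 2 and elST replicate 3 it ranked 845, 893 and 853. Gm42418 ranked between 5 and 37 in the shorter-fragment libraries, between 14 and 17 in priSG-B, and between 215 and 264 in the others. Together the loci made up 2.01 to 20.3% of the summed FPKM of the table in the shorter-fragment libraries and 0.0288 to 0.827% in the longer-fragment ones.

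Converted to fragments with the inferred depth and fragment length, AY036118 took 60122 to 484882 fragments per shorter-fragment library and 318 to 1807 per longer-fragment library. Its share of all fragments was highest in rST replicate 2, at 0.993% (95% Wilson interval 0.990 to 0.996%), and among shorter-fragment libraries lowest in elST replicate 2, at 0.142% (0.141 to 0.143%). Both loci together held 0.171 to 1.16% of fragments in the shorter-fragment libraries and 0.00492 to 0.0434% in the longer-fragment libraries. These intervals cover counting error only, and the shares are of the fragments behind the FPKM scale, which need not be all those sequenced.

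The balance between the loci turned over between the sets. Gm42418 stood at 0.0365 to 0.148 times the FPKM of AY036118 in the 12 shorter-fragment libraries (median 0.0766). In the 6 longer-fragment libraries it stood at 3.92 to 8.71 times (median 5.79). The 3 priSG-B ratios were 7.08, 8.71 and 8.62, those of pacSC replicates 1 and 2 were 4.50 and 3.92, and that of elST replicate 3 was 4.35. Within pacSC, replicate 3 had a ratio of 0.0365, and within elST replicates 1 and 2 had ratios of 0.0930 and 0.0888. The lowest longer-fragment ratio was 26.4 times the highest shorter-fragment ratio. Since the shared 923 bases are the whole of AY036118 and 50.4% of Gm42418, the ratio depends on how reads from them were shared out, and that step was not tested.

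**Figure D4:**
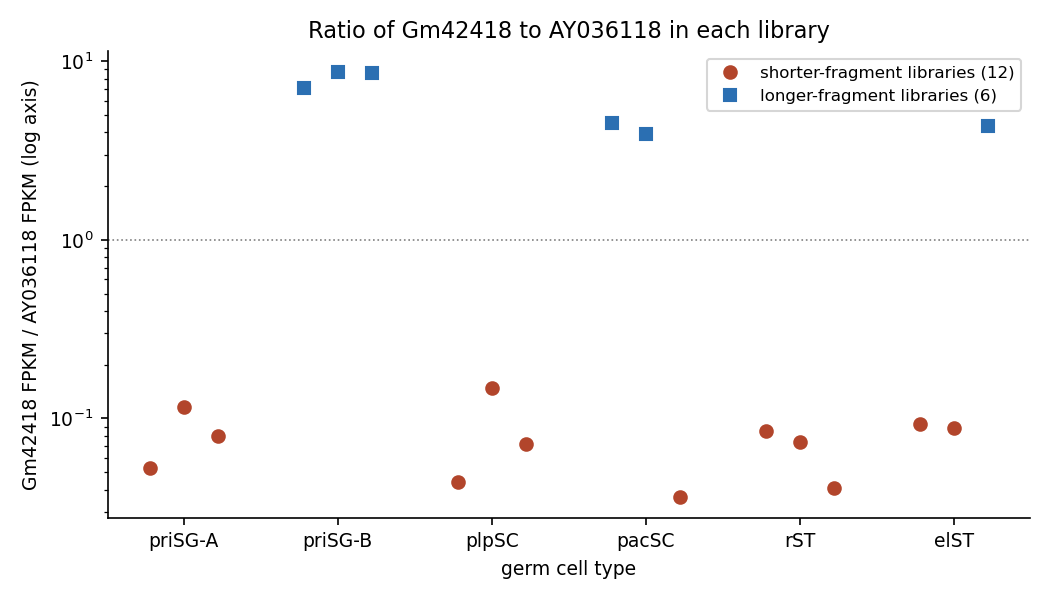
FPKM of Gm42418 divided by that of AY036118 in each of the 18 libraries, on a log axis, by type. The 12 shorter-fragment libraries (circles) lie between 0.0365 and 0.148, and the 6 longer-fragment libraries (squares) between 3.92 and 8.71.

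Whether the loci differ among the types was tested with limma on log2(FPKM + 1) over the 4117 loci with 1 FPKM or more in at least 3 libraries, a filter that both loci passed. An F test over the 6 types called 28 loci (0.68%) at a Benjamini-Hochberg adjusted p under 0.05. Neither AY036118 nor Gm42418 was among them (limma adjusted p = 0.294 for each; unadjusted p = 0.00982 and 0.0459). Without pacSC replicate 3, the library of that type with shorter fragments, AY036118 passed (limma adjusted p = 0.0315). That fit called 32 of the 4117 loci. Within the 12 shorter-fragment libraries alone neither locus passed (limma adjusted p = 0.957 for each).

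In priSG-B against priSG-A, AY036118 was lower in all 3 libraries (28.8 ± 6.74 FPKM in priSG-B and 9608 ± 3177 FPKM in priSG-A, SD, n = 3 each). The log2 fold change was -8.30 ± 2.42 (SE), which did not pass (limma adjusted p = 0.213). Gm42418 averaged 231 ± 29.4 FPKM in priSG-B and 762 ± 267 FPKM in priSG-A, which gave -1.66 ± 1.06 on the log2 scale (limma adjusted p = 0.971) and -0.33 when libraries were rescaled to the table's sum without the pair. The groups did not overlap for either locus, which was also so for 18% of the loci tested in this direction. Called loci were 0.68% of those tested (0.656% higher and 0.0243% lower in priSG-B). That split of 27 higher and 1 lower became 14 higher and 126 lower with the library set as a term. Fitted on the 6 libraries of both types alone, AY036118 passed (limma adjusted p = 0.00161), in a fit that called 151 of the 4117 loci.

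All priSG-B libraries belong to the longer-fragment set and all priSG-A and plpSC libraries to the shorter-fragment set. Type and set thus cannot be told apart in the first pair of comparisons. A set term draws on pacSC and elST alone and assumes that their difference between sets also holds for priSG-B. That was not tested, and the lowest priSG-B value was 3.09 (AY036118) and 5.92 (Gm42418) times the highest other longer-fragment value. The pacSC and elST libraries also differ in 1700027A15Rik. It was at 75.8, 84.9 and 1195 FPKM in pacSC replicates 1 to 3 and at 0.570, 875 and 73.0 FPKM in elST replicates 1 to 3. Library set and cell content thus cannot be told apart within these types. With the library set as a term, the fold changes turned to 1.26 ± 0.93 for AY036118 and 1.82 ± 0.92 for Gm42418 (limma adjusted p = 0.679 and 0.414).

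In plpSC against priSG-B, AY036118 averaged 7351 ± 4960 FPKM in plpSC and 28.8 ± 6.74 FPKM in priSG-B, which gave 7.67 ± 2.42 on the log2 scale (limma adjusted p = 0.223). Gm42418 averaged 519 ± 316 FPKM in plpSC and 231 ± 29.4 FPKM in priSG-B, which gave 1.02 ± 1.06 (limma adjusted p = 0.671) and turned to -0.01 under the same rescaling. The libraries did not overlap for either locus, as for 12.5% of loci in this direction, and 1.26% of loci were called (0.0243% higher and 1.24% lower in plpSC). That split of 1 higher and 51 lower became 46 higher and 15 lower with the library set as a term. On the 6 libraries of both types alone AY036118 passed (limma adjusted p = 0.0183), in a fit that called 23 of the 4117 loci. With the library set as a term the fold changes of AY036118 and Gm42418 were -1.89 and -2.47. The priSG-B libraries are shared with the comparison against priSG-A.

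In pacSC against plpSC, AY036118 averaged 3085 ± 5331 FPKM in pacSC and 7351 ± 4960 FPKM in plpSC, and Gm42418 133 ± 177 FPKM in pacSC and 519 ± 316 FPKM in plpSC. The log2 fold changes were -6.11 ± 2.42 and -2.73 ± 1.06 (limma adjusted p = 0.305 for each), and the libraries overlapped for both loci, as they did in the next 2 comparisons. In rST against pacSC, AY036118 averaged 10723 ± 3806 FPKM in rST and 3085 ± 5331 FPKM in pacSC, and the log2 fold changes of the loci were 6.89 ± 2.42 and 3.21 ± 1.06 (limma adjusted p = 0.537 for each). In elST against rST, AY036118 averaged 3785 ± 4921 FPKM in elST and 10723 ± 3806 FPKM in rST, and the log2 fold changes were -4.24 ± 2.42 and -1.91 ± 1.06 (limma adjusted p = 0.882 for each). In each of these 3 comparisons 0 loci (0%) were called by limma, also without trend and robust estimation, and 650, 372 and 78 loci had an unadjusted p under 0.05.

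Within the 12 shorter-fragment libraries, where pacSC keeps 1 library that is assumed to vary like the others, the fold changes of AY036118 were 0.63 ± 1.03 (SE) in pacSC against plpSC, 0.14 ± 1.03 in rST against pacSC and -1.24 ± 0.82 in elST against rST (limma adjusted p = 0.733, 1 and 1). Those of Gm42418 were -0.46 ± 1.06, 0.94 ± 1.06 and -0.72 ± 0.84 (limma adjusted p = 0.811, 1 and 1). A p that misses the threshold does not show that the types are alike in these loci.

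5 libraries had stood apart from their type in an earlier analysis of these data, namely priSG-A, plpSC and pacSC replicate 3 and rST and elST replicate 1. Without them AY036118 passed in all 5 comparisons, with log2 fold changes of -8.06, 7.15, -8.96, 10.15 and -6.20 in order of age (limma adjusted p = 0.0156, 0.0234, 0.0015, 0.00123 and 0.0234). Gm42418 passed in the last 3, with -3.40, 4.03 and -2.76 (limma adjusted p = 0.0027, 0.0016 and 0.0178). The same fit called 448, 477, 2932, 2401 and 1718 of the 4117 loci in these comparisons and 3923 in the F test, after the removal of libraries chosen for standing apart, so a pass there does not set the pair apart from other loci. In that fit pacSC keeps longer-fragment libraries alone and rST shorter-fragment libraries alone, so type and set cannot be told apart there either.

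**Figure D5:**
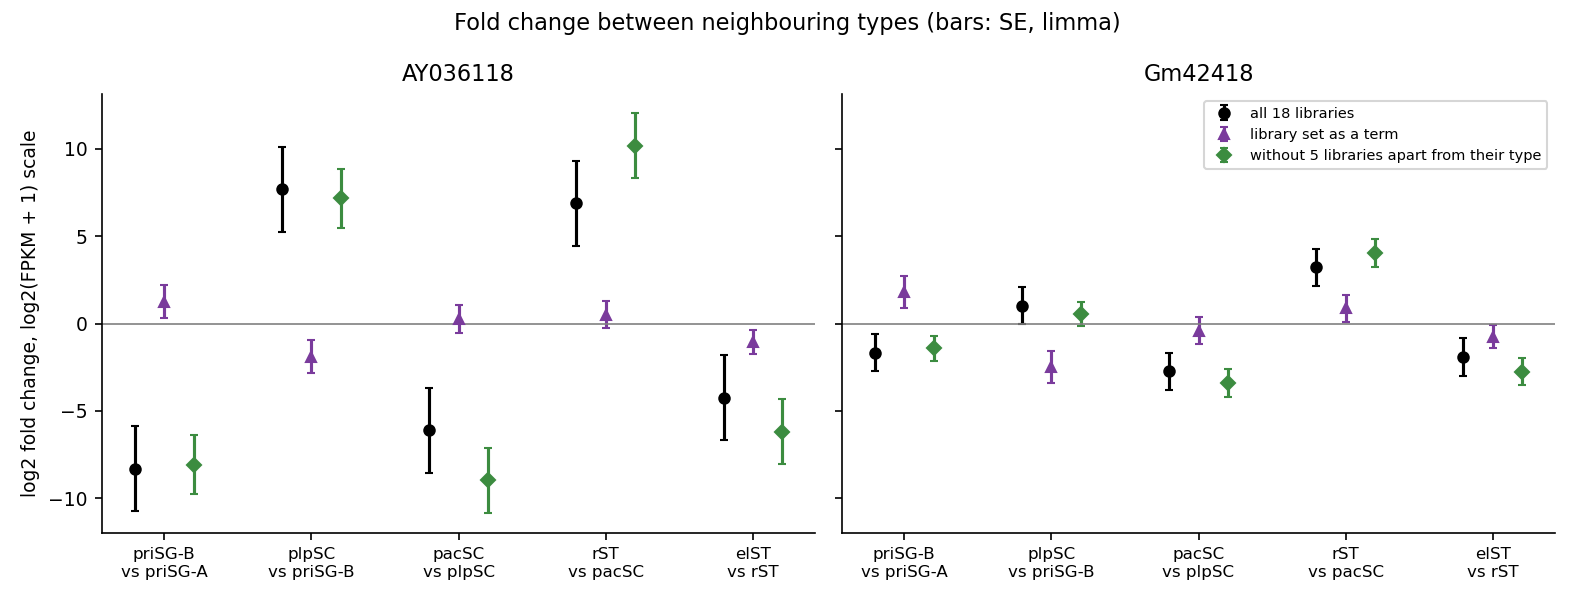
Log2 fold change on the log2(FPKM + 1) scale between each type and the one before it by age, with SE bars from limma, for AY036118 and Gm42418. Circles use all 18 libraries, triangles add the library set as a term and diamonds leave out 5 libraries: for AY036118 the circles lie between -8.30 and 7.67 and the triangles between -1.89 and 1.26.

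The neighbour Gm26917 overlapped between the sets. GENCODE types it as lincRNA, on the plus strand at chr17:39843013-39846341, with a GC content of 69.1%. It ends 11 bases before the rRNA transcript and shares no stretch of 50 bases or more with AY036118 or Gm42418. Whether Gm26917 belongs to the ribosomal RNA precursor was not tested, so it is not taken as an independent gene. Its priSG-A replicates gave 2863, 1984 and 938 FPKM, those of priSG-B 2746, 2520 and 2577 FPKM and those of plpSC 753, 2449 and 103 FPKM. The later types gave 454, 503 and 134 FPKM for pacSC, 2903, 82.5 and 63.9 FPKM for rST, and 2497, 211 and 468 FPKM for elST. The priSG-B libraries, which were low in AY036118, were thus among those highest in Gm26917, and 3 libraries high in AY036118 (rST replicates 2 and 3 and plpSC replicate 3) were among its lowest. AY036118 stood at 0.942 to 169 times the FPKM of Gm26917 in the shorter-fragment libraries and at 0.00893 to 0.0164 times in the longer-fragment libraries. Gm26917 passed no comparison (limma log2 fold change of 0.58 ± 1.36 in priSG-B against priSG-A, adjusted p = 1).

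Across libraries on the log2(FPKM + 1) scale, Gm42418 had a Pearson r of 0.77 with AY036118 over the 12 shorter-fragment libraries, the highest of the loci tested, and of 0.99 over the 6 longer-fragment libraries. Over those 6, which hold priSG-B and the lower pacSC and elST libraries, Gm26917 had an r of 0.98 and Gm29237 of 0.99 with AY036118, so the value is not particular to Gm42418. Over the 12 shorter-fragment libraries Gm26917 had an r of -0.08. Over all 18 libraries Gm42418 had an r of 0.85 with AY036118 (rank 3), and Gm26917 had an r of -0.20. These values are descriptions, since the loci share sequence and the libraries fall into separate sets. Among the other loci most like AY036118 over the 18 libraries were Gm37939 (r = 0.86), Gm37750 (0.82) and Gm29237 (0.81). Gm37939 ranged from 1.91 to 6.84 FPKM in the shorter-fragment libraries and from 0.371 to 1.97 FPKM in the longer-fragment ones, and its r within the shorter-fragment libraries was -0.10. Gm37750, a locus of 129 bases, was listed at 0 in all 6 longer-fragment libraries and ranged from 0 to 132253 FPKM in the shorter-fragment ones. It is shorter than the inferred mean fragment of every library (198 to 268 bp), so its scaling to length is uncertain. Gm29237 ranged from 0.346 to 1.87 FPKM and from 0 to 0.589 FPKM in the same sets (r = 0.00 within the shorter-fragment libraries). Least like it were Gm33051 (r = -0.94), Gm28901 (-0.90), 1700048O20Rik (-0.90), Snhg10 (-0.90) and Gm20632 (-0.89), with values of -0.61 to -0.13 within the shorter-fragment libraries.

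Other RNAs of ribosome production were compared with the pair. Of 26 listed symbols for ribosomal RNA and other abundant structural RNAs, 7 were in the table and 6 were tested, among them Rmrp, the RNA of the RNase MRP enzyme that cuts the ribosomal RNA precursor. Rmrp alone passed, lower in priSG-B than in priSG-A (limma adjusted p = 0.00201) and higher in plpSC than in priSG-B (limma adjusted p = 0.0025). It was the 1 locus of the 4117 (0.0243%) called in each of these directions. It was listed at 0 in the 3 priSG-B libraries, while the other longer-fragment libraries held 51841 and 66814 FPKM (pacSC replicates 1 and 2) and 55398 FPKM (elST replicate 3), and the longer-fragment libraries held both its lowest and its highest values. In the shorter-fragment libraries it ranged from 253 to 65601 FPKM. The priSG-B libraries have inferred fragments of 232 to 236 bp, and the other longer-fragment libraries of 262 to 268 bp. Type and fragment length thus cannot be told apart for Rmrp within that set. How far its FPKM depends on fragment length was not tested. Terc, the telomerase RNA, ranged from 0 to 97.8 FPKM in the shorter-fragment and from 34.8 to 524 FPKM in the longer-fragment libraries. Malat1 and Neat1, nuclear RNAs that are not part of ribosome production, ranged from 129 to 3183 FPKM and from 2.28 to 11.3 FPKM in the shorter-fragment libraries and from 111 to 605 FPKM and from 5.14 to 8.61 FPKM in the longer-fragment ones. Gm37376 and Gm26917, which were tested, and Gm15564, which was too low to be tested, completed the list.

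Host genes of small nucleolar RNAs, which guide the chemical modification of ribosomal RNA, were the other list. Of 26 symbols 19 were in the table, on 27 rows, and 20 rows were tested. In all 5 comparisons 0 passed by limma in either direction, with or without trend and robust estimation, and in order of age 5, 6, 0, 1 and 0 of the 20 had an unadjusted p under 0.05, where 313, 315, 650, 372 and 78 of all 4117 loci did. Their median log2 fold change was 0.89 in priSG-B against priSG-A, where that of all loci was -0.21, and -1.10 in plpSC against priSG-B, where that of all loci was 0.42. Both are opposite in sign to the fold changes of AY036118. In the later comparisons the median of the host genes was -0.36, -0.55 and 0.72, where that of all loci was 0.58, -0.35 and 0.17. AY036118 gave -6.11, 6.89 and -4.24 there, so its sign was the same as theirs in pacSC against plpSC. Gas5, the most abundant, ranged from 29.9 to 144 FPKM in the shorter-fragment libraries and from 68.7 to 177 FPKM in the longer-fragment ones. Snhg10 separated the sets without overlap, at 1.54 to 5.54 FPKM in the shorter-fragment and 6.15 to 10.8 FPKM in the longer-fragment libraries. Snhg8, Snhg1 and Snhg5 overlapped between the sets, with medians of 43.1, 22.8 and 18.3 FPKM in the shorter-fragment libraries and 52.1, 53.1 and 27.2 FPKM in the longer-fragment libraries. FPKM is relative to all counted fragments of a library, and the part of ribosomal RNA reads in the levels of other loci was not tested. The rescaling named above does not test it, since other abundant loci take much of the table's sum. In plpSC replicate 2, Rmrp alone held 65601 of a summed 131916 FPKM.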

How the data were processed

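The authors deposited 1 table of FPKM with a column for each of the 18 libraries, and the submitters' processing notes name mm10, HISAT2 (an aligner) and StringTie (a transcript quantifier). Their versions, the annotation, the strand setting and the total that FPKM are scaled to are not stated in the labels. Of its loci, 13191 matched GENCODE M21 by identifier and 27 did not. Depth and fragment length were fitted to the FPKM steps of 3304 single-exon loci of 600 to 6000 bases: within a tolerance of 0.02, 91.7 to 99.5% of low values per library were whole fragments. The depths are therefore estimates. FPKM were analysed as log2(FPKM + 1) with limma 3.58.1 in R 4.3.3 (trend and robust estimation, 1 coefficient per type, two-sided, threshold 0.05, Benjamini-Hochberg over 4117 loci). Fold changes on this scale understate those of low loci. Sequences came from the GENCODE M21 transcripts, searched with BLAST 2.17.0 (stretches of at least 50 bases).

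The members, lists and tests were chosen with earlier results of these data known. Named besides the pair were the listed loci, loci within 10 kb and the 5 loci most and least like AY036118; the locus most like AY036118 is not reported here. Alternatives covered the pseudocount, filter, scaling, limma settings, library set, replicate number and each library. Python 3.11.15 with pandas 2.3.3, numpy 2.4.6 and matplotlib 3.10.9 served for tables and figures.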

Additional observations from a re-analysis of the deposited data

How the results depend on the processing

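Limma without trend and robust estimation changed no call of either locus, and neither did the replicate block, under which AY036118 and Gm42418 had F test adjusted p of 0.12 and 0.145. Replicate numbers were not taken to pair the libraries, since not every same-numbered pair of different types had a correlation of deviations over 0.1 (25 of 45 did). Their median was 0.13, against -0.10 for pairs of other numbers, and 7 of 18 libraries were closest to their own number. The filter was set on all 18 libraries in each fit on a subset. Depth and fragment length are inferred, and how reads of the shared stretch were assigned is unknown. The cause of the changes below was not tested.

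With the library set as a term, AY036118 turned to 1.26, -1.89 and 0.26 on the log2 scale in the first 3 comparisons by age, and Gm42418 to 1.82 and -2.47 in the first 2. In the shorter-fragment libraries alone AY036118 turned to 0.63 in pacSC against plpSC, and they hold no priSG-B library, so they give no value for the first 2 comparisons. Rescaled to the table's sum without the pair, Gm42418 turned to -0.013 in plpSC against priSG-B. That rescaling, under which 4811 loci passed the filter, moved the median of all loci to 0.05 in priSG-B against priSG-A and to 0.07 in plpSC against priSG-B, where it was -0.21 and 0.42 as deposited. The sum used there also holds other abundant loci such as Rmrp, so these values do not isolate the share of the pair. On the libraries of both types alone AY036118 passed at -8.30 in priSG-B against priSG-A and 7.67 in plpSC against priSG-B. Without the 5 libraries apart from their type it passed at -8.06, 7.15, -8.96, 10.15 and -6.20, and Gm42418 at -3.40, 4.03 and -2.76 in the last 3, with F test adjusted p of 0.00079 and 0.00209. By inferred fragments in place of FPKM the median ratio of Gm42418 to AY036118 was 0.174 in the shorter-fragment and 13.6 in the longer-fragment libraries.

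Of the 28 loci called in priSG-B against priSG-A, the count became 1 with a pseudocount of 0.1, 76 with no filter, 10 with a filter of 5 FPKM, 51 after quantile normalization, 429 after rescaling, 140 with the set term, 151 on both types alone and 448 (171 higher and 277 lower) without the 5 libraries. Of the 52 in plpSC against priSG-B, it became 2, 118, 21, 87 and 486 under the first 5 of these, 61 with the set term, 23 on both types alone and 477 (288 higher and 189 lower) without the 5 libraries. The 0 calls in pacSC against plpSC, rST against pacSC and elST against rST became 3, 3 and 1 with no filter and 2932, 2401 and 1718 without the 5 libraries. The 28 of the F test became 1, 90, 9, 59 and 614 under the same first 5, 148 with the set term, 0 in the shorter-fragment libraries alone (19 at an unadjusted p under 0.05) and 3923 without the 5 libraries.

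Leaving out each library in turn reversed no fold change of the pair. In order of age, AY036118 ranged from -8.55 to -8.06, 7.15 to 8.35, -9.48 to -4.42, 5.19 to 10.26 and -6.30 to -1.24, with F test adjusted p of 0.0315 to 0.435. Gm42418 ranged from -1.95 to -1.42, 0.55 to 1.26, -3.87 to -2.11, 2.59 to 4.35 and -3.07 to -0.72, with F test adjusted p of 0.119 to 0.435. Without pacSC replicate 3 AY036118 passed in priSG-B against priSG-A (limma adjusted p = 0.0452) and in plpSC against priSG-B (limma adjusted p = 0.0493). The same fit called 33 and 57 of the 4117 loci in these comparisons. Called loci ranged from 14 to 36, 21 to 62, 0 to 1173 (without plpSC replicate 3), 0 to 1 and 0 to 1, and from 9 (without priSG-B replicate 3) to 81 (without rST replicate 1) in the F test. The median ratio ranged from 0.0736 to 0.0795 in the shorter-fragment and from 4.50 to 7.08 in the longer-fragment libraries.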
